A study of Mus musculus with 4 samples.

Results

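The activating transcription factor ATF4 and 9 genes of its amino acid stress response were compared between serum and 2i embryonic stem cells (ESCs) in late G1-phase. The 10 genes were Atf4, Ddit3, Ddit4, Asns, Trib3, Chac1, Slc7a11, Slc3a2, Slc7a5 and Sesn2. They were taken by symbol and by no rule on their values, but with earlier results of these data known. All 10 were among the 14533 genes of the table and among the 13005 that passed the filter on low values. Both groups were mouse ESCs adapted to their medium for over 20 days, with 2 libraries each and 4 in all. The serum group grew in medium with fetal calf serum, sodium pyruvate and 2-mercaptoethanol, and the 2i group in a defined serum-free medium with the GSK3 inhibitor CHIR99021 and the MEK inhibitor PD0325901. LIF was present in both media. The basal medium, the serum and the inhibitors changed together, so their parts in any difference cannot be told apart. No cell line is named for these libraries. The study's methods describe sorting of ESCs with fluorescent cell cycle reporters. The sample labels give late G1-phase where the series text gives early G1-phase, and the labels were followed.

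ATF4 is the main effector of the integrated stress response. When amino acids run short, or the endoplasmic reticulum or redox state is disturbed, kinases phosphorylate the initiation factor eIF2. Most translation then slows, while short open reading frames upstream of the Atf4 coding sequence let more ATF4 protein be made. ATF4 pairs with C/EBP proteins on composite DNA elements and switches on amino acid transporters, biosynthetic enzymes and regulators of cell survival. Because much of this control is translational, the transcript of Atf4 and the transcripts of its target genes report on different steps.

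The composite element bound by ATF4 with C/EBP proteins was searched as TGATGNAA on both strands of RefSeq promoter windows (GRCm38.p6, 250 bases before to 50 bases after a start site). A window was held for 9 of the 10 genes, all but Slc7a5. At least 1 match lay in 4 of these 9 windows, those of Asns, Trib3, Chac1 and Slc7a11. A match was held by 3.97% of all 32851 windows and by 2.29% of the 11945 windows that belong to listed genes. The stretches around the 5 matches are shown because ATF4 acts on its target genes through elements of this kind. Each is written 5′ to 3′ on the strand of the gene with up to 60 bases on either side, and capitals mark the match.
Asns (chr6:7693180-7693292, minus strand): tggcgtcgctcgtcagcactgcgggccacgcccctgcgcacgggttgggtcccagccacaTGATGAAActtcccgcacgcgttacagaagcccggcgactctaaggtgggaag
Trib3 (chr2:152344031-152344106, minus strand): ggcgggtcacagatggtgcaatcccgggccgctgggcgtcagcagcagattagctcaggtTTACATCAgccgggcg
Chac1 (chr2:119350992-119351116, plus strand): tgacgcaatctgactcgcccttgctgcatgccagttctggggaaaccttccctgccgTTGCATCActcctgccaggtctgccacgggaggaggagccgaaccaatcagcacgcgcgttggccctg
Slc7a11 (chr3:50443593-50443739, minus strand): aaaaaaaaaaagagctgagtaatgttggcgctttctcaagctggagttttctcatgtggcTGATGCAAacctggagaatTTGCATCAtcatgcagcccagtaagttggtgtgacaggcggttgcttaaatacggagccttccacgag
With position 1 as the first transcribed base, the match of Asns began at -23 and that of Chac1 at -193. Slc7a11 had a pair of matches on opposite strands, beginning at -66 and -47. The match of Trib3 began at position 15, inside the transcribed part. The windows of Atf4, Ddit3, Ddit4, Slc3a2 and Sesn2 held no match to these letters. A match is a description of the letters and not evidence of binding in these cells.

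**Figure D1:**
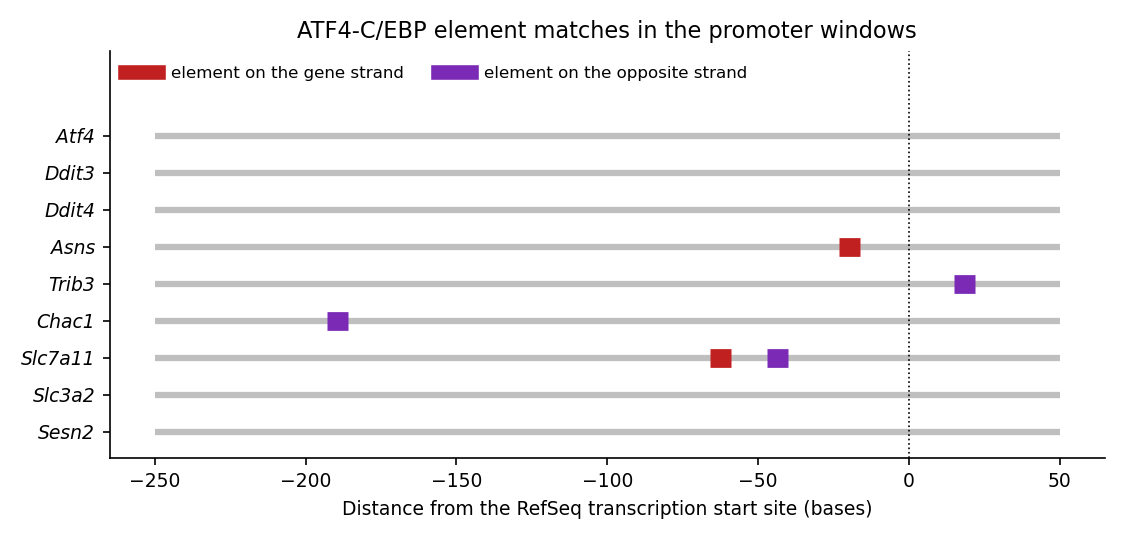
Promoter windows of 9 genes, drawn as grey bars over the distance in bases from the RefSeq start site, with matches to TGATGNAA in red (strand of the gene) or purple (opposite strand). Matches lie in 4 of 9 windows, and Slc7a11 holds 2.

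The 4 libraries held between 18939401 and 26570098 whole reads. The 10 most abundant genes took 50.6% (replicate 1) and 17.5% (replicate 2) of these in serum and 34.7% and 25.5% in 2i. Protein-coding genes took 46.9% (replicate 1) and 76.3% (replicate 2) in serum and 57.8% and 66.3% in 2i. Values below are normalized counts, which are gene counts divided by a size factor for each library. All 7 pluripotency markers were listed, with a summed level of 48225 to 64300 normalized counts in serum and 56736 to 78167 in 2i. Of 7 primitive endoderm markers 4 were listed (Gata4, Gata6, Sox17 and Pdgfra), with sums of 72.0 and 109 under serum against 332 and 256 under 2i. Of 7 fibroblast markers 3 were listed (Col1a1, Thy1 and Fbn1), with sums of 304 and 267 under serum against 268 and 109 under 2i. None of the listed markers was at 0. The primitive endoderm sums were higher in both 2i libraries, as were Gata4, Gata6 and Sox17. Pdgfra overlapped, with 47.0 and 41.8 under serum against 60.2 and 27.2 under 2i. Sox17 and Pdgfra fell below the filter on low values. The part of the primitive endoderm markers in the values below was not tested.

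The 10 transcripts lay lower in serum ESCs than in 2i ESCs in their fitted means. None passed the main test over all genes, limma without a replicate term. The median log2 fold change (serum over 2i, on normalized count + 1) was -0.59, beside 0.0047 over all 13005 genes, and ranged from -0.24 for Slc3a2 to -2.62 for Ddit3. A log2 fold change below 0 was found for 10 of the 10 genes and for 49.7% of all genes, although those of Trib3 and Slc3a2 turned above 0 once GC content and length were corrected for. With limma, 0 of the 10 combined a 2-fold change in either direction with an adjusted p-value below 0.05, where 0% of all genes were called higher and 0.0154% lower in serum ESCs. When a 2-fold change and an unadjusted p-value below 0.05 were asked for, Ddit3 and Chac1 were lower in serum ESCs (2 of 10, beside 3% of all genes) and 0 were higher (beside 2.97%). DESeq2 on whole reads called 1 of the 10, Ddit3, lower in serum ESCs (beside 1.37% of all genes) and 0 higher (beside 0.561%), and edgeR called 0 in both directions (beside 0%). Without adjustment DESeq2 found 3 of the 10 lower (beside 7.59%) and 0 higher (beside 4.56%), and edgeR found 1 lower (beside 3.81%) and 0 higher (beside 2.21%). In such bulk samples fewer cells that express a gene and less RNA per cell cannot be told apart.

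Replicates spread widely. Both serum libraries lay below both 2i libraries for 4 of the 10 genes, Atf4, Ddit3, Chac1 and Sesn2, beside 19.4% of all genes, and for 0 of the 10 they lay above both, beside 20.5%. The difference between conditions was larger than the differences between replicates of either condition for 3 of the 10, Atf4, Ddit3 and Chac1, beside 12.6% of all genes that were lower in serum ESCs by that measure. It was higher by that measure for 0 of the 10, beside 13.7%. A difference between means of 2 libraries varies less than one between single libraries. At least 2-fold lower in serum ESCs, with no test, were 3 of the 10, Ddit3, Chac1 and Ddit4, beside 15.9% of all genes, and 0 were at least 2-fold higher, beside 9.89%.

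**Figure D2:**
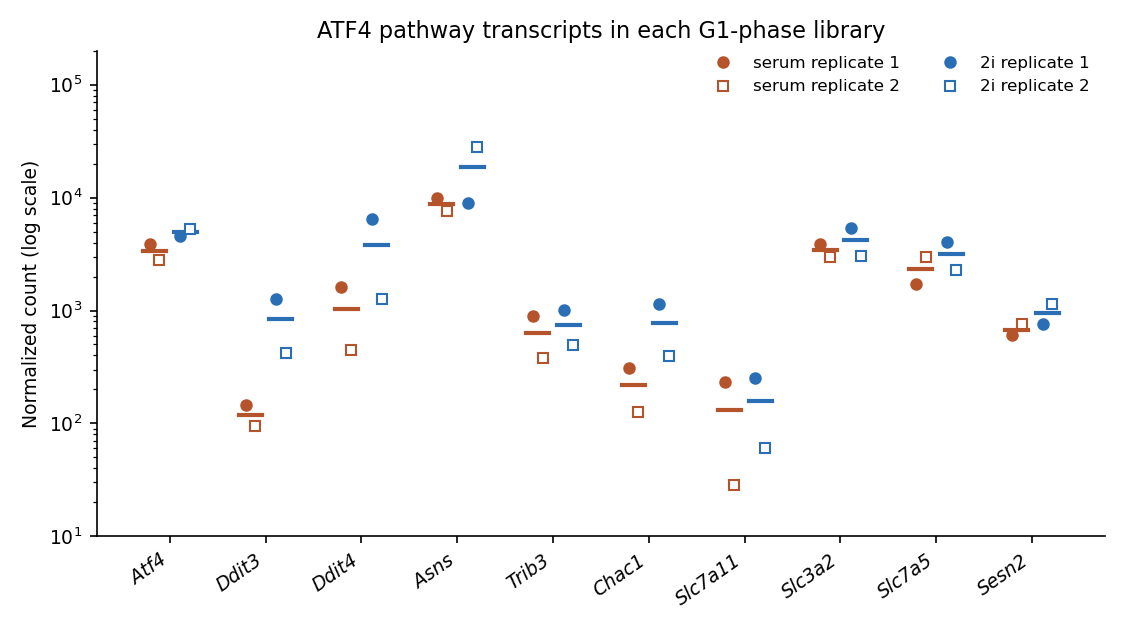
Normalized counts (log axis) of Atf4 and 9 response genes in each library, with serum in orange, 2i in blue, replicate 1 as filled circles, replicate 2 as open squares and horizontal bars at the group means. Ddit3 has both serum libraries (145 and 94.3) far below both 2i libraries (1258 and 418), while Asns has 1 high library, 2i replicate 2 (27953).

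Atf4 (ENSMUSG00000042406, chromosome 15, 80085614 to 80087970, plus strand) encodes the transcription factor at the head of the response. Gene positions here and below are in mm9, unlike those of the promoter stretches above (GRCm38.p6). Atf4 stood at 3891 (replicate 1) and 2799 (replicate 2) normalized counts under serum against 4571 (replicate 1) and 5276 (replicate 2) under 2i. The groups did not overlap, and the lower 2i library exceeded the higher serum library 1.17-fold. Its log2 fold change was -0.57 (SE 0.46), with a 95% interval from -1.69 to 0.54 and an adjusted p-value of 0.774 (limma). It was -0.34 without serum replicate 2 and -0.24 once GC content and length were corrected for.

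Ddit3, which encodes CHOP, a C/EBP relative that promotes cell death when stress persists, differed most (ENSMUSG00000025408, chromosome 10, 126727830 to 126733344, plus strand). It had 145 and 94.3 normalized counts under serum against 1258 and 418 under 2i. Both 2i libraries stood above both serum libraries, the lower of them 2.88-fold above the higher serum library, and the mean in 2i was 7.003-fold that in serum. The log2 fold change was -2.62 (SE 0.66), with a 95% interval from -4.21 to -1.04, an unadjusted p-value of 0.00630 and an adjusted p-value of 0.753 (limma). With DESeq2 on whole reads the log2 fold change was -2.84 and the adjusted p-value 0.0158, and with edgeR the adjusted p-value was 0.692. With all 4 libraries the adjusted p-value of Ddit3 ran from 0.0129 with a replicate block (replicate number as a term in the fit) to 0.829 with quantile normalization (limma). Its log2 fold change lay between -3.42 and -1.83 without each library in turn. Once GC content and length were corrected for it was -2.06, with an adjusted p-value of 0.619 (limma). On the opposite strand Mars, a gene for a tRNA synthetase, shares 68 exonic bases with Ddit3, and the library kit named by the study does not mark strand, so reads there could come from either gene.

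Trib3 (ENSMUSG00000032715, chromosome 2, 152163158 to 152169768, minus strand) encodes a pseudokinase that restrains ATF4 and AKT signalling. It had 885 and 381 normalized counts under serum against 1004 and 495 under 2i. Replicate 1 lay above replicate 2 in both conditions and the groups overlapped. The log2 fold change was -0.28 (SE 0.61), with an adjusted p-value of 0.925 (limma). It turned to 0.33 without serum replicate 2, to 0.23 without 2i replicate 1 and to 0.19 after correction for GC content and length.

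Among the effectors that restrain growth or use up glutathione, Chac1 and Ddit4 differed most. Chac1 (ENSMUSG00000027313, chromosome 2, 119176965 to 119180117, plus strand) encodes an enzyme that degrades glutathione. It had 310.2 and 125 normalized counts under serum against 1139.9 and 396 under 2i. The groups did not overlap, with the lower 2i library 1.28-fold above the higher serum library. Its log2 fold change was -1.76 (SE 0.71) and lay between -2.52 and -1.0005 without each library in turn. With all libraries it had a 95% interval from -3.48 to -0.049, an unadjusted p-value of 0.0454 and an adjusted p-value of 0.753 (limma). Other settings with all 4 libraries put its unadjusted p-value on both sides of 0.05. It was 0.0833 with GC content and length corrected for (log2 fold change -1.34, limma). Without the variance trend it was 0.0872 (limma), and edgeR gave 0.056. Below 0.05 were the replicate block without that correction (0.00408) and with it (0.0164), quantile normalization (0.0498, all limma) and DESeq2 (0.0255). Also below 0.05 with limma were pseudocounts of 0.5 (0.0454) and 5 (0.0470), no filter (0.0477) and a mean of at least 200 (0.0428). Upper quartile scaling (0.0464) and TMM scaling (0.0477) were too (limma).

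Ddit4 (ENSMUSG00000020108, chromosome 10, 59412423 to 59414518, minus strand), also called REDD1, inhibits the growth kinase complex mTORC1. It had 1624 and 443 normalized counts under serum against 6408 and 1268 under 2i. Replicate 1 was the higher library in both conditions, by 3.66-fold in serum and 5.05-fold in 2i, and serum replicate 1 exceeded 2i replicate 2. The log2 fold change of -1.75 (SE 0.93) had an unadjusted p-value of 0.107 and an adjusted p-value of 0.753 (limma). With the replicate block its SE was 0.52, with an unadjusted p-value of 0.00210 and an adjusted p-value of 0.0975 (limma). DESeq2 gave an unadjusted p-value of 0.0496 and an adjusted p-value of 0.379, and edgeR gave 0.123 and 0.693. The limma log2 fold change moved to -0.58 when 2i replicate 1 was left out and to -2.92 when 2i replicate 2 was. With GC content and length corrected for it stood at -1.32. Sesn2 (ENSMUSG00000028893, chromosome 4, 132047947 to 132066416, minus strand) encodes a leucine sensor that also restrains mTORC1. It had 604 and 752.32 under serum against 752.64 and 1151 under 2i. Its groups did not overlap only by the decimals of serum replicate 2 and 2i replicate 1, and its log2 fold change was -0.46 (SE 0.46), with an adjusted p-value of 0.808 (limma). That value was -0.16 without 2i replicate 2 and -0.14 once GC content and length were corrected for.

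Asns (ENSMUSG00000029752, chromosome 6, 7625169 to 7643254, minus strand), asparagine synthetase, was the most abundant of the 10 transcripts. It had 9829 and 7592 normalized counts under serum against 9017 and 27953 under 2i. Of these libraries 2i replicate 2 stood apart, 3.1-fold above 2i replicate 1, which lay between the serum libraries. The log2 fold change of -0.88 (SE 0.69), with an adjusted p-value of 0.773 (limma), came to -0.062 when 2i replicate 2 was left out and to -1.69 when 2i replicate 1 was.

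The transporters of the group form 2 exchangers that share a heavy chain. Slc3a2 (ENSMUSG00000010095, chromosome 19, 8781372 to 8797859, minus strand), the shared chain, had 3883 and 2997 normalized counts under serum against 5383 and 3029 under 2i. Slc7a5 (ENSMUSG00000040010, chromosome 8, 124405052 to 124431594, minus strand), the light chain that carries leucine and other large neutral amino acids, had 1732 and 2971 under serum against 4063 and 2279 under 2i. Slc7a11 (ENSMUSG00000027737, chromosome 3, 50168858 to 50247535, minus strand), the light chain that brings in cystine and is also a target of the redox factor NRF2, had 232 and 28.2 under serum against 252 and 61.1 under 2i. The groups overlapped for each of the 3. For Slc7a11 the replicates differed 8.23-fold in serum and 4.13-fold in 2i, more than the means of the conditions did (157 in 2i, 130.2 in serum).
The log2 fold changes were -0.24 (SE 0.51) for Slc3a2, -0.42 (SE 0.53) for Slc7a5 and -0.60 (SE 1.19) for Slc7a11, with adjusted p-values of 0.921, 0.860 and 0.916 (limma). That of Slc7a11 turned to 0.89 without serum replicate 2 and to 0.41 without 2i replicate 1, that of Slc3a2 turned to 0.17 without 2i replicate 1 and to 0.039 after correction for GC content and length, and that of Slc7a5 was -0.0064 without 2i replicate 1. Without serum replicate 1 Slc7a5 stood at -0.034, and at -0.18 once GC content and length were corrected for. The 95% interval for Slc3a2 ran from -1.46 to 0.98 and that for Slc7a11 from -3.47 to 2.26, so a 2-fold difference in either direction lay within the interval of Slc7a11.

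**Figure D3:**
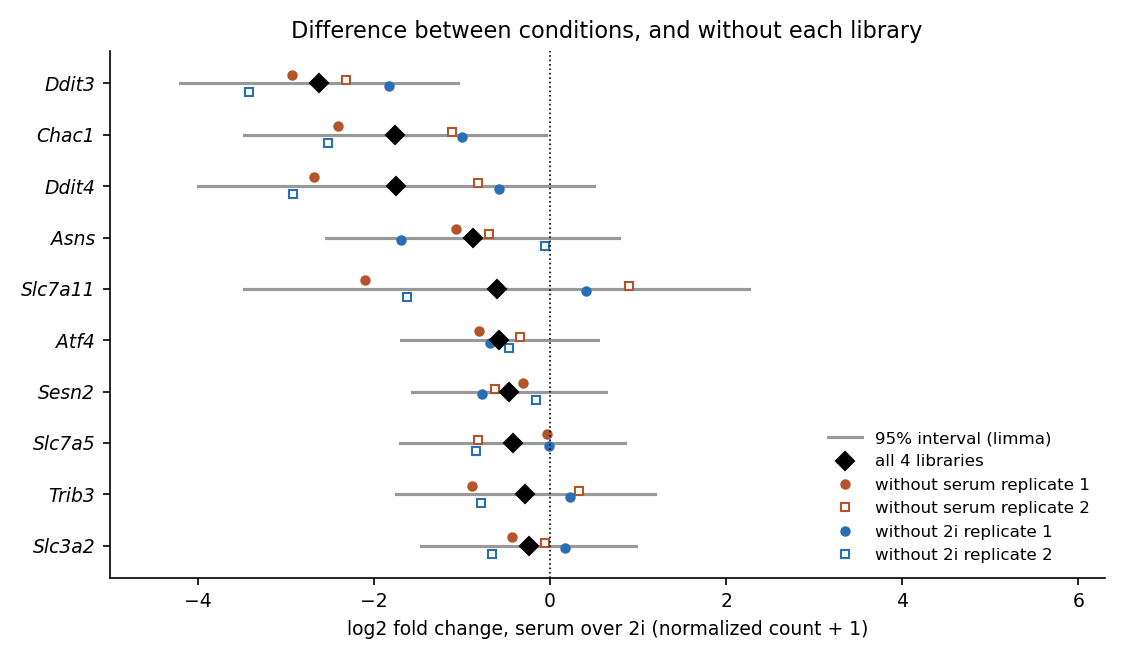
log2 fold changes (serum over 2i) of the 10 genes with all 4 libraries (black diamonds) and their 95% limma intervals (grey lines), and without each library in turn (small symbols). The interval of Ddit3 (-4.21 to -1.04) and that of Chac1 (-3.48 to -0.049) lie below 0, and the symbols of Trib3, Slc7a11 and Slc3a2 fall on both sides of 0.

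The order of the replicates differed among the 10 genes. Replicate 1 exceeded replicate 2 for 8 of them in serum (beside 47.3% of all genes) and for 7 in 2i (beside 48.6%). Ddit3, Ddit4, Trib3, Chac1, Slc7a11 and Slc3a2 were higher in replicate 1 of both conditions. Sesn2 was higher in replicate 2 of both. Atf4 and Asns were higher in serum replicate 1 and in 2i replicate 2, and Slc7a5 in serum replicate 2 and in 2i replicate 1. The median log2 difference over the 10 genes was 0.39 between 2i replicate 1 and serum replicate 1 and 0.37 between 2i replicate 2 and serum replicate 1. Against serum replicate 2 it was 1.12 for 2i replicate 1 and 1.002 for 2i replicate 2. Between replicates the same median was 0.55 in serum and 0.93 in 2i (replicate 1 over replicate 2), while the medians over all genes lay between -0.045 and 0.0068 for these library pairs. The larger differences between conditions were those against serum replicate 2, the library with the highest share of protein-coding reads (76.3%). A part of library composition in these differences was not tested.

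The pattern of Atf4 over the 4 libraries was compared with that of every gene by the Euclidean distance between centred log2 values. The nearest 5 genes were 1810031K17Rik, Gpt, Aldh2, 1700040I03Rik and Dnd1, at distances of 0.049 to 0.073. Of the response genes Sesn2 lay nearest to Atf4 (distance 0.64), with 1574 of 13005 genes nearer. Ddit3 lay farthest (distance 2.41), with 11111 genes nearer. Both counts of nearer genes include Atf4 itself. With 4 libraries many genes share any given pattern.

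Levels were compared between genes per kb of exon. In serum ESCs Asns was highest with 3185 ± 578 normalized counts per kb (SD, n = 2), followed by Atf4 (1940 ± 448), Slc3a2 (1163 ± 212), Slc7a5 (669 ± 249), Ddit4 (613 ± 495), Trib3 (298 ± 168), Sesn2 (195 ± 30.1), Chac1 (133 ± 79.8), Ddit3 (69.9 ± 21.0) and Slc7a11 (11.6 ± 12.8). The ranges of the 2 libraries were separate between Asns and Atf4, Atf4 and Slc3a2, Slc3a2 and Slc7a5, and Ddit3 and Slc7a11. Other neighbours in this order overlapped. In 2i ESCs Asns (6759 ± 4896) and Atf4 (2856 ± 289) again led and Slc7a11 (13.9 ± 12.02) was again last. Ddit4 (2278 ± 2157) stood above Slc3a2 (1422 ± 563) and Slc7a5 (902 ± 359), and Ddit3 (489 ± 347) and Chac1 (469 ± 321) stood above Trib3 (353 ± 169) and Sesn2 (274 ± 81.1). In 2i the ranges were separate only between Asns and Atf4 and between Sesn2 and Slc7a11. The length of the longest transcript in place of all exons left the order as it was and moved Ddit3 and Asns most, to 124 and 4321 in serum.

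The transcripts of the 10 genes differed in composition and leader. The coding transcripts of the 10 genes had a median GC content of 55.9%, beside 50.3% over all genes with a transcript, and only Asns (47.7%) and Slc7a11 (40.7%) fell below the latter. The longest coding transcript held 3 upstream ATG triplets in the 5′ leader for Atf4, 2 for Ddit3, 1 each for Asns, Slc7a11 and Sesn2, and 0 for the other 5. Of 11427 genes with an annotated 5′ leader 51.3% held at least 1 and 29.9% at least 2, so that the 5 of 10 with at least 1 lay near the share of all genes. Between 95.5% and 100% of the 43-base words of each gene's coding transcripts, the length of a read, were found in no coding transcript of another gene. Noncoding genes, pseudogenes and the rest of the genome were not searched. After correction for GC content and transcript length the median log2 fold change of the 10 genes was -0.54, where that of all genes was 0.099.

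The wider pathway was described with 11 lists of other genes, also chosen with earlier results known, of which 122 were tested. Of these, 62 were lower and 60 higher in serum ESCs, with a median log2 fold change of -0.027. With limma 0 of the 122 had an adjusted p-value under 0.05. By the looser rule of a 2-fold change and an unadjusted p-value below 0.05, 5 were lower and 2 higher, beside the 3% and 2.97% of all genes given above. DESeq2 on whole reads called 1 of them, Atf3, and edgeR called 0.

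The other response genes of ATF4 and CHOP had a median log2 fold change of -0.96. Without serum replicate 2 it was -0.45, beside -0.66 for the 10 genes, and with GC content and length corrected for it was -0.54, as for the 10 genes. Of 13 tested 12 were below 0 (beside 49.7% of all genes), and both serum libraries lay below both 2i libraries for 5 of the 13 (beside 19.4%). A 2-fold lower level in serum ESCs at an unadjusted p-value under 0.05 was found for 3 of the 13, Nupr1, Vegfa and Herpud1 (beside 3%). Vegfa, an angiogenic factor, had 204 and 279.9 normalized counts under serum against 2065 and 524 under 2i (log2 fold change -2.12, SE 0.71). Nupr1, a stress-induced chromatin protein, had 762 and 182 under serum against 2073 and 1015 under 2i (log2 fold change -1.96, SE 0.77). Herpud1, a factor of protein degradation at the endoplasmic reticulum, had 350.2 and 307 under serum against 569 and 984 under 2i (log2 fold change -1.19, SE 0.48). The member at the upper end was Ero1l, an oxidase of the endoplasmic reticulum (log2 fold change 0.19, SE 0.44).

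The relatives and partners of ATF4 that bind DNA through basic leucine zippers had a median of -0.57, and 8 of 10 tested were below 0 (beside 49.7% of all genes). Atf3, an immediate stress factor, had 58.0 and 49.6 normalized counts under serum against 254 and 825 under 2i (log2 fold change -3.07, SE 0.71). Its adjusted p-value was 0.753 (limma). Cebpb, a dimer partner of ATF4, had 115 and 76.8 under serum against 272 and 325 under 2i (log2 fold change -1.65, SE 0.55). Both serum libraries lay below both 2i libraries for 5 of the 10 tested, Atf3 and Cebpb among them, beside 19.4% of all genes. They lay above both for 1 of the 10, beside 20.5%. Atf2, a relative that answers stress kinases, stood at the other end with 1079 and 1490 under serum against 423 and 514 under 2i (log2 fold change 1.44, SE 0.44).

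Enzymes of amino acid synthesis and folate metabolism under ATF4 control had a median of -0.38, with 9 of 11 below 0 (beside 49.7% of all genes) and 0 at an unadjusted p-value under 0.05. Pycr1, the last enzyme of proline synthesis, was lowest, with 554 and 224 normalized counts under serum against 1456 and 652 under 2i (log2 fold change -1.47, SE 0.64). Shmt2, a mitochondrial serine enzyme, was highest (log2 fold change 0.25, SE 0.43). The tRNA synthetases had medians closer to 0. The 13 genes under ATF4 control, which include the tRNA exporter Xpot, had a median of -0.031, with 7 below and 6 above 0, and ran from Yars (-0.35) to Xpot (0.67). The 8 other synthetases had a median of 0.20 and ran from Qars (-0.46) to Rars (0.62). No gene of either list had an unadjusted p-value under 0.05. The element TGATGNAA lay in the promoter window of 5 of the 8 ATF4-controlled synthetase genes with a window and of 0 of the 5 others. Of genes with a window in the other lists it lay in 3 of 10 other ATF4 and CHOP response genes, 2 of 10 basic leucine zipper genes, 2 of 9 genes of amino acid synthesis, 1 of 7 eIF2 and eIF2B subunits and 1 of 7 other transporters. It lay in 0 of 6 eIF2 kinases and regulators, 0 of 13 chaperone genes, 0 of 7 NRF2 targets and 0 of 13 mTORC1 regulators, beside 2.76% of the 9323 listed genes with a window.

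Other amino acid transporters, listed by role and not divided by ATF4 control, had a median of 0.098, with 5 of 11 below 0. Slc38a2, the SNAT2 carrier of small neutral amino acids, had 2466 and 4390.5 normalized counts under serum against 1377 and 1267 under 2i (log2 fold change 1.32, SE 0.48), so that both serum libraries lay above both 2i libraries. Its unadjusted p-value was 0.0315 and its adjusted p-value 0.753 (limma). Slc1a4, a carrier of alanine, serine and cysteine, stood at the other end with 566 and 369 under serum against 1363 and 581 under 2i (log2 fold change -0.96, SE 0.57).

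Upstream, the eIF2 kinases and their regulators had a median of 0.31, with 3 of 9 below 0, and the eIF2 and eIF2B subunits a median of 0.37, with 1 of 8 below 0. The first list ran from Gcn1l1, a partner of the amino acid sensor kinase GCN2, at -1.07 to Eif2ak1, the heme-regulated kinase, at 0.76. The value of Gcn1l1 rested on 2i replicate 1 (15500.3 normalized counts, beside 2291 to 3156 in the other 3 libraries). Eif2ak4, which encodes GCN2 itself, had 490.3 and 363 under serum against 408 and 329.8 under 2i. The second list ran from Eif2b5 (-0.56), again set by 1 library (9547 in 2i replicate 2, beside 1116 to 2269 in the others), to Eif2s1 (0.91), the subunit that is phosphorylated. No gene of these 2 lists had an unadjusted p-value under 0.05.

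The other stress branches had medians near 0. Chaperones and the XBP1 and ATF6 arms of the endoplasmic reticulum response had a median of 0.091, with 6 of 16 below 0, and ran from Edem1 (-0.52), which directs misfolded glycoproteins to degradation, to the chaperone Hsp90b1 (0.94). NRF2 targets had a median of -0.0092, with 5 of 10 below 0, and ran from the quinone reductase Nqo1 (-1.92) to the thioredoxin reductase Txnrd1 (0.35). Regulators of mTORC1 had a median of 0.077, with 4 of 13 below 0, and ran from Sesn3 (-0.90), a sestrin like Sesn2, to the GTPase Rraga (1.24). The values of Nqo1 and Rraga each rested largely on 2i replicate 2. Nqo1 had 2565 normalized counts there, beside 164 to 533 in the other libraries, and Rraga 203, beside 769 to 965. In each of these 3 lists 0 genes had an unadjusted p-value under 0.05 with limma.

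**Figure D4:**
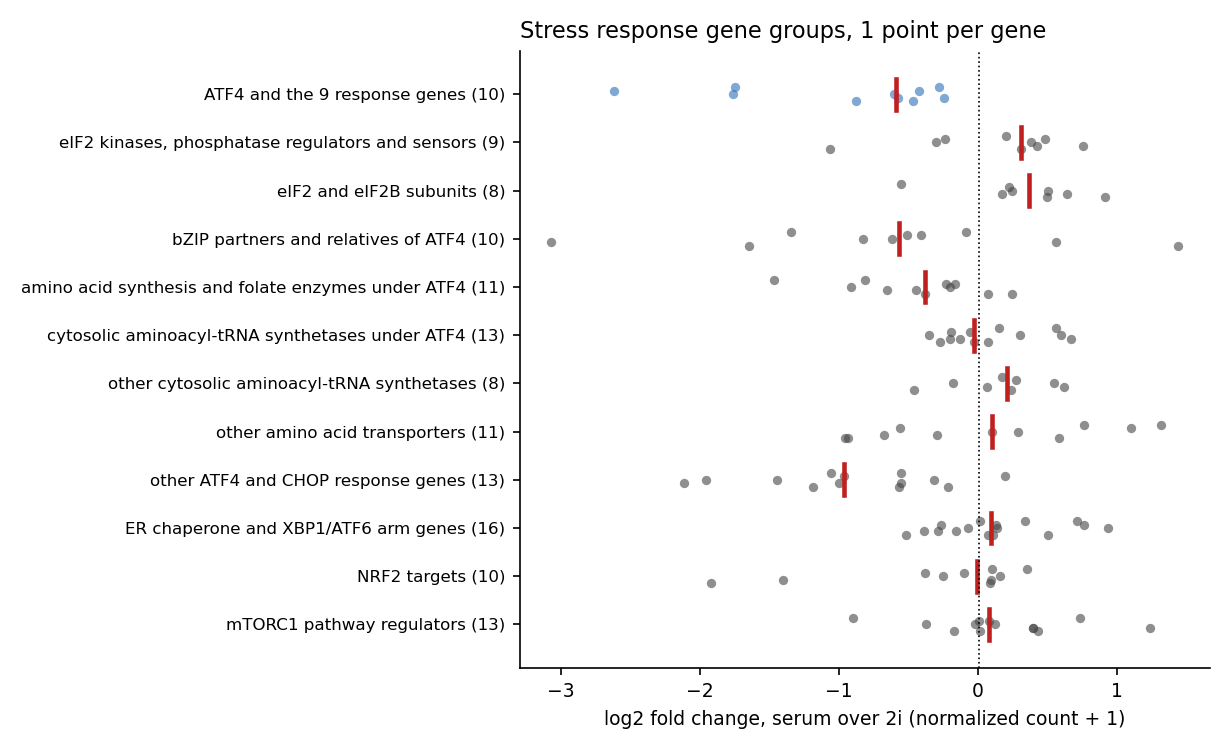
log2 fold changes (serum over 2i) of the 10 genes (blue) and of 11 lists of related genes (grey), 1 point per tested gene, with red bars at the medians and a dotted line at the median of all 13005 genes. The medians lie at -0.59 for the 10 genes and -0.96 for the other ATF4 and CHOP response genes, and at -0.031 for the tRNA synthetases under ATF4.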

How the data were processed

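RNA was sequenced from sorted G1-phase mouse ESCs after removal of ribosomal RNA, with random primers and single-end reads of 43 bases. The authors aligned reads to mm9 with Bowtie and quantified them with MMSeq. They deposited a signal, in which the read count of each gene was scaled by the DESeq2 size factor of its library (normalized counts). All values were whole multiples of 1 step per library (100% within 0.001 reads), so whole reads were recovered for the count tests. The series text calls the replicates biological without naming separate cultures, so p-values measure the spread between these libraries, which may be partly technical.

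Names, positions (mm9) and transcripts came from GENCODE vM1, which held 14462 of 14533 genes. Promoter sequences came from RefSeq (GRCm38.p6). The filter kept 13005 genes whose mean reached 50 normalized counts in one of the groups. Serum and 2i were compared on the scale log2(normalized count + 1) in R 4.3.3 by limma 3.58.1, with Benjamini-Hochberg adjustment, a variance trend and no replicate term. This scale understates changes of low genes. A call needed both a 2-fold change and an adjusted p-value below 0.05. The study called genes with DESeq2. DESeq2 1.42.0 and edgeR 4.0.16 on whole reads, a GC content and length correction (mgcv 1.9.3, 11818 genes), pseudocounts of 0.5 and 5, a mean of at least 200, no filter, other scalings (TMM, upper quartile, quantile), no trend, a replicate block and each library left out were the alternatives. An exact permutation test of 2 against 2 libraries cannot go below 0.333 and was not used. The fit was tested on simulated data, where the run it had to pass had less spread between replicates than these libraries. It therefore does not show how many changes the fit missed here.

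The 10 genes and the lists were chosen with earlier results of these data known. All 10 were named, with the gene at each end of every list, genes of the lists, and the 5 genes nearest to Atf4.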

Additional observations from a re-analysis of the deposited data

How the results depend on the processing

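No setting turned the median log2 fold change of the 10 genes, which lay between -0.97 and -0.63 without each library in turn and between -0.73 and -0.54 under the other settings. Of the 10 genes, 1 was called lower in serum ESCs with the replicate block and 1 with DESeq2, which was Ddit3 both times, and 2 without adjustment. Over all genes, where 0 were called higher and 2 lower in serum ESCs, the replicate block gave 44 and 159, DESeq2 73 and 178, and no adjustment 386 and 390. The replicate block with GC content and length correction gave 1 higher. Lower were 4 genes at a mean of at least 200, 1 without the trend, 0 with edgeR, 0 after GC content and length correction and 0 to 0 without each library. Of the 122 tested genes of the 11 pathway lists, the replicate block and DESeq2 each called 1 lower. The replicate differences of both conditions correlated across genes with r = 0.480, and with 2 pairs the replicate numbers are not shown to pair the libraries.

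Trib3 turned to 0.19 and Slc3a2 to 0.039 after GC content and length correction, with or without the replicate block. Without each library Trib3 lay between -0.89 and 0.33, Slc7a11 between -2.10 and 0.89, and Slc3a2 between -0.66 and 0.17. After GC content and length correction, with or without the replicate block, the median was 0.092 for the eIF2 kinases and regulators, -0.54 for the other ATF4 and CHOP response genes and 0.20 for the mTORC1 regulators. The latter stood at -0.069 under upper quartile scaling, when the median of all genes was -0.14, and at 0.19 under quantile normalization. The other transporters stood at 0.58 at a mean of at least 200. Without each library the medians lay between 0.060 and 0.83 for the eIF2 and eIF2B subunits, -0.69 and -0.21 for amino acid synthesis, -0.34 and 0.57 for the other transporters, -1.24 and -0.45 for the other ATF4 and CHOP response genes, -0.37 and 0.23 for NRF2 targets and -0.12 and 0.295 for mTORC1 regulators. They lay between -0.32 and 0.29 for the synthetases under ATF4, -0.054 and 0.46 for the other synthetases, -0.088 and 0.32 for the chaperones, -0.86 and -0.27 for the basic leucine zipper genes and 0.12 and 0.51 for the eIF2 kinases and regulators, so the direction of the first 3 turned with a single library. With GC content and length corrected for, amino acid synthesis stood at -0.14, the synthetases under ATF4 at 0.13 and the chaperones at 0.28. The causes were not tested. A group left with 1 library was assumed to vary like the other.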
